A study of Mus musculus with 18 samples.

Results

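The comparison described here sets a granulosa cell tumour against a wild-type ovary, both from CF-1 mice of 5 months, an outbred strain. The tumour formed in an ovary of a transgenic mouse that hypersecretes luteinizing hormone (LH) and carries the transgene named LHCTP in the labels. The wild-type ovary has no transgene. Their RNA was read on chips A and B, a single array per sample and chip, so that 4 of the 18 arrays of the series belong to the comparison. The other 14 arrays hold CF-1 transgenic ovaries of 2 months, described as cystic, CF-1 transgenic ovaries of 5 months treated with human chorionic gonadotropin (hCG), described as a luteoma, hybrid (CF-1xC57BL/6 F1) transgenic ovaries that were cystic at 2 months and a luteoma at 5 months, and 3 wild types, CF-1 of 2 months and the hybrid of 2 and 5 months. No treatment is named for either sample of the comparison. The labels name neither the promoter of the transgene nor the number of mice per sample. For the tumour array of chip B the description gives an age of 2 months while title and source give 5 months, which were followed.

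Granulosa cells line the ovarian follicle, nourish the oocyte, convert androgens into oestrogens and secrete inhibins, activins and anti-Müllerian hormone. The ovulatory surge of LH turns them into luteal cells, which leave the cell cycle and make progesterone from cholesterol. A whole ovary also holds oocytes, stroma, vessels and macrophages, and a dissected one can bring oviduct and fat of the adjoining tissue with it. A lower level in such bulk tissue can come from fewer cells of a type or from less RNA per cell, which cannot be told apart here.

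Levels are given as scaled intensities in arbitrary units. Values were raised to a floor of 183.8 units on chip A and 290.7 units on chip B before log2 was taken, so that a fold against a sample under the floor is given as at least that size. A probe set was measured where the tumour or the wild type reached 2 floors, and a gene is said to have risen or fallen where the samples differed at least 3-fold with the brighter one at that limit. With 1 array a side there is no replicate and no test, and the folds describe these samples. Of 5926 measured probe sets, 295 passed (4.98%), of which 102 were higher (1.72%) and 193 were lower (3.26%) in the tumour. The median log2 difference over all of them was 0.04, and the 10th and 90th percentiles were -0.84 and 0.77. Of the probe sets that passed, 79 higher and 145 lower ones carry a single gene symbol.

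**Figure D1:**
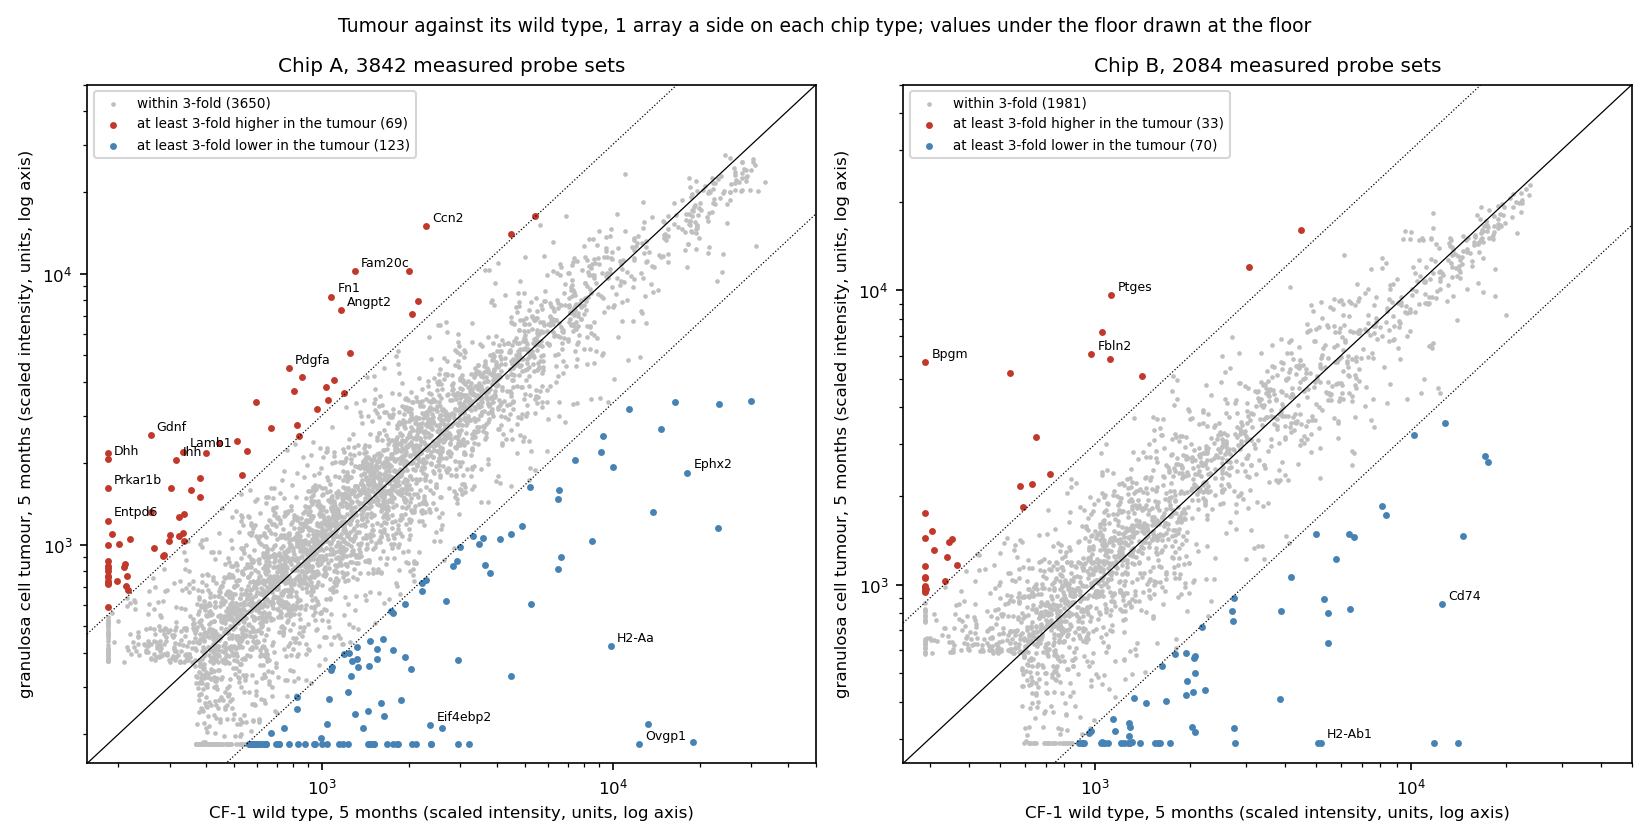
Scaled intensity in the tumour (vertical, log axis) against the CF-1 wild type of 5 months (horizontal, log axis), 1 point per measured probe set, chip A left and chip B right. The dotted lines mark 3-fold; of the chip A points 69 (1.8%) lie above them and 123 (3.2%) below, of the chip B points 33 (1.58%) and 70 (3.36%), and a row of blue points at the floor holds genes that were bright in the wild type and under the floor in the tumour.

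The wild type of the pair stood apart from the other wild types, whose values are therefore given beside many results. It differed at least 3-fold from the CF-1 wild type of 2 months at 194 probe sets (3.21%), from the hybrid of 2 months at 255 (4.22%) and from the hybrid of 5 months at 219 (3.57%). Among the other 3 wild types the counts were 67 (1.14%), 97 (1.61%) and 78 (1.3%). The tumour differed from these 3 at 470 (7.67%), 500 (8.16%) and 367 (5.94%) probe sets, in the order CF-1 of 2 months, hybrid of 2 months and hybrid of 5 months, and 206 (3.36%) were higher in the tumour than in the first of them. The counts of the other transgenic ovaries against the CF-1 wild type of 5 months were 238 (3.9%) for the cystic CF-1, 250 (4.08%) for the hCG-treated CF-1, 281 (4.6%) for the cystic hybrid and 138 (2.36%) for the hybrid luteoma. The CF-1 wild type of 5 months stood at least 3-fold beyond each of the other 3 wild types at 67 probe sets (1.05%), against 13 (0.203%) for the CF-1 of 2 months, 14 (0.219%) for the hybrid of 2 months and 9 (0.141%) for the hybrid of 5 months. The 18S ribosomal RNA control read 295 units in the tumour and 411 units in its wild type on chip A, against 1202 to 2463 units in the other wild types. On chip B it read 225 and 247 units in the tumour and its wild type, against 1040 to 2108 units in the other wild types. The part of this control level in the results was not tested. The 3′ probe sets of actin differed little within the pair, at 14879 units in the tumour and 12826 in the wild type on chip A. A stricter count is therefore given beside the first one: 41 probe sets (0.692%) stood at least 3-fold above each of the 4 wild types and 66 (1.11%) at least 3-fold below each. Such genes are described below as beyond all 4 wild types.

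**Figure D2:**
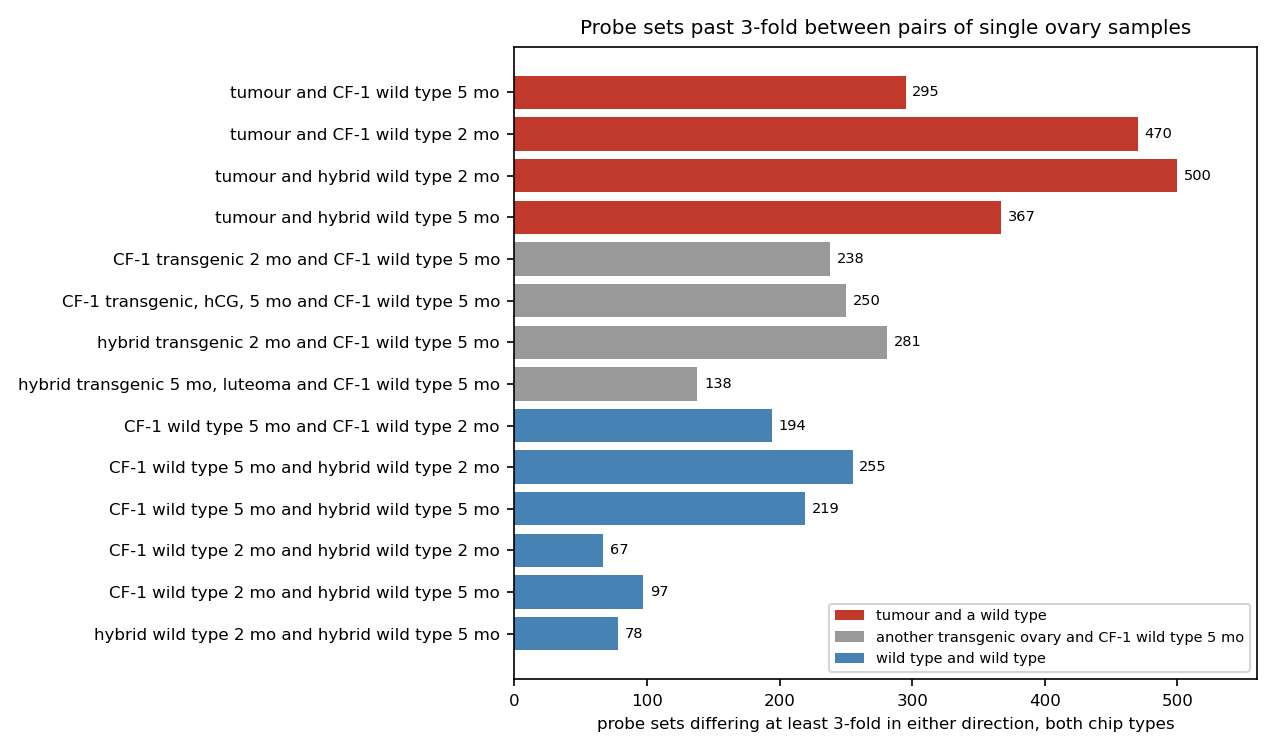
Number of probe sets on both chip types that differed at least 3-fold in either direction (horizontal) between 2 single ovary samples (rows); red bars pair the tumour with a wild type, grey bars another transgenic ovary with the CF-1 wild type of 5 months, blue bars 2 wild types. The tumour and its wild type differed at 295 probe sets, and the CF-1 wild type of 5 months differed more from the other wild types (194 to 255) than those differed among themselves (67 to 97).

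Of 39 gene lists, each gene was represented by its brightest probe set, and the background over 3665 measured genes was 1.83% higher and 3.49% lower, with a median log2 difference of 0.02. The label of the sample was checked first. Of the 15 measured genes of granulosa cells and follicles, 5 rose and 1 fell, and the list median was 1.14. Only 1 of the rises, that of Dhh, lay beyond all 4 wild types. Dhh and Ihh are among the 5 rises and are described below with the hedgehog ligands. Inhba, the activin and inhibin beta A subunit, read 12028 units in the tumour and 3080 in the wild type. The hybrid wild type of 5 months read 5891 units, so the tumour was less than 3-fold above it. Hsd17b1, the granulosa enzyme that makes oestradiol from oestrone, read 16045 units in the tumour and 4478 in the wild type. The hybrid wild type of 5 months read 5765 units for it, again within 3-fold of the tumour. Ccnd2, the D-type cyclin of follicle growth, read 1030 units in the tumour and 337 in the wild type, while the other wild types read 376 to 1882 units. Inhbb and Fst, for the beta B subunit and the activin-binding follistatin, differed by 1.31 and 1.42 on the log2 scale, short of 3-fold. Inha, the inhibin alpha subunit, was bright on both sides at 14779 units in the tumour and 19568 in the wild type. The early granulosa genes went the other way. Wt1, a zinc finger factor of immature granulosa cells, fell to 1219 units in the tumour, against 5766 in the wild type, and lay beyond all 4 wild types, whose lowest read 4429 units. A second Wt1 probe set had a log2 difference of -1.65. Amh, anti-Müllerian hormone of small follicles, read 414 units in the tumour and 1157 in the wild type, short of 3-fold. Of the 16 oocyte genes searched only 2 were measured, and neither passed: Gdf9, an oocyte growth factor, read 1223 units in the tumour and 1782 in the wild type, and Zp2 of the zona pellucida 156 and 447 units. The luteal and steroid list fell at 3 of 9 genes with a median of -1.22, and the cholesterol synthesis list at 4 of 8 with a median of -1.48. Star, the mitochondrial cholesterol carrier, had 188 units in the tumour and 18850 in the wild type.

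Both mammalian hedgehog ligands that granulosa cells make rose together. Dhh, desert hedgehog, read 2073 units in the tumour and lay under the floor in the wild type, a rise of at least 11.3-fold, and it was beyond all 4 wild types, which reached 617 units. A probe set for Dhh on chip B also rose, by 1.71 on the log2 scale. Ihh, Indian hedgehog, read 2049 units in the tumour and 317 in the wild type. The highest wild type for Ihh, the hybrid of 5 months, read 791 units, so that the tumour was less than 3-fold above it. A second probe set for Ihh differed by 1.52 on the log2 scale, short of 3-fold. In the other 4 transgenic ovaries Dhh stayed at or below 406 units and Ihh at or below 794. Of the 26 measured genes of Wnt, Notch and hedgehog signalling, 3 rose and 0 fell, and the third was Dvl2, a dishevelled protein of Wnt signalling. Dvl2 read 919 units in the tumour and 287 in the wild type, but 932 and 829 units in the hybrid wild types of 2 and 5 months. It therefore passed 3-fold only over the CF-1 wild types and was not beyond all 4. Wnt4, a Wnt ligand of granulosa cells, did not reach the floor in the tumour and read 745 units in the wild type, a log2 difference of -1.36 that did not pass.

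The secreted factors Gdnf, Pdgfa, Igfbp2 and Angpt2 rose above every other ovary of the series. Gdnf, a neurotrophic factor that signals through Ret, read 2539 units in the tumour and 258 in the wild type, and 112 to 698 units in the other 7 ovaries. Pdgfa, a platelet-derived growth factor ligand, read 4489 units in the tumour and 769 in the wild type. Its receptor gene Pdgfrb, of stromal and perivascular cells, went the opposite way, with 1289 units in the wild type and a level under the floor in the tumour. Igfbp2, which binds insulin-like growth factors, rose to 4045 units in the tumour, against 1106 in the wild type. These were the 3 rises and the 1 fall among 39 measured growth factor and receptor genes, whose median was 0.01. Angpt2, a ligand of the endothelial receptor Tek, read 7366 units in the tumour and 1162 in the wild type, with 581 to 889 units in the other wild types and 892 to 2303 in the other transgenic ovaries. A second Angpt2 probe set rose by 2.21 on the log2 scale. In the tumour Nnat, a small membrane proteolipid of developing brain, reached 4180 units, against 858 in the wild type. The neuropeptide gene Gal rose to 819 units and Scg2, a granin of secretory granules, to 972 units in the tumour. Both were under the floor in the wild type, but the cystic hybrid read 645 units for Scg2. Of the same list of 24 neural and neuroendocrine genes 3 fell, among them Penk, the enkephalin precursor, with 572 units in the tumour and 2076 in the wild type. Nnat, Gal and Scg2 lay beyond all 4 wild types, and the fallen Penk, Npr1 and Ndn did not.

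**Figure D3:**
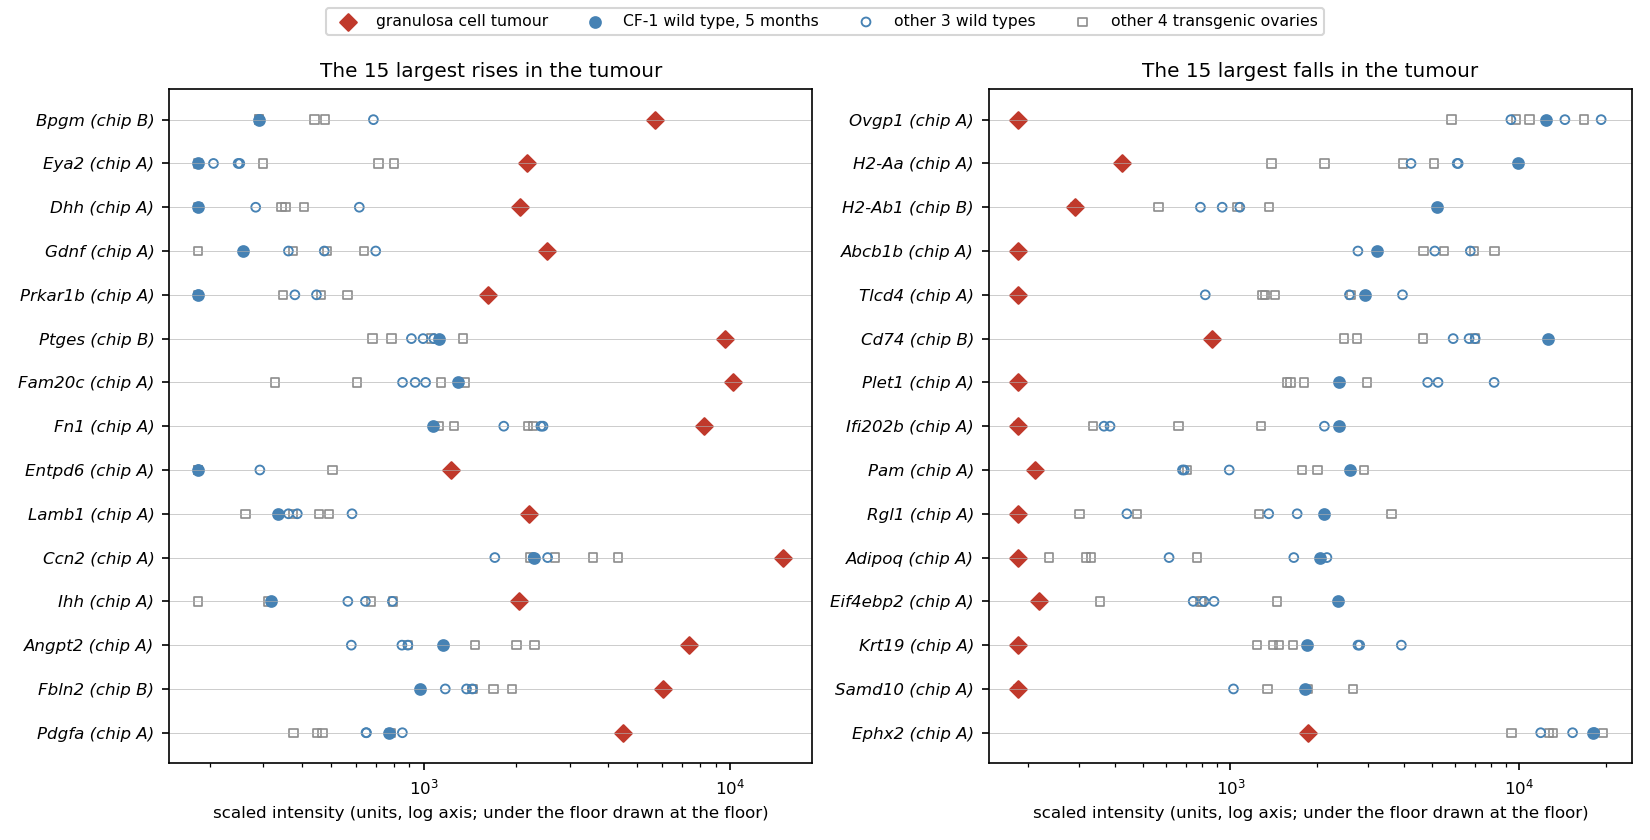
Scaled intensity (horizontal, log axis, values under the floor drawn at the floor) of the 15 genes with the largest rise (left) and the 15 with the largest fall (right) outside the steroid, luteal and cholesterol lists; red diamonds stand for the tumour, filled circles for the CF-1 wild type of 5 months, open circles for the other 3 wild types, squares for the other 4 transgenic ovaries. All 15 rises have the tumour to the right of the other 8 ovaries; among the falls, Eif4ebp2, Ifi202b and H2-Ab1 show a wild type of 5 months at the upper edge with some other wild types closer to the tumour.

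Extracellular matrix genes gave the most rises of any list, though the granulosa and endothelial lists rose in a larger share of their fewer genes. Of 43 measured matrix genes 6 rose and 2 fell, 5 and 1 of them beyond all 4 wild types, and the list median was 0.27. Fn1, fibronectin, read 8249 units in the tumour and 1077 in the wild type, and a second Fn1 probe set read 7205 and 1051 units. Lamb1, the laminin beta 1 chain of basement membranes, read 2211 units in the tumour and 334 in the wild type. Ccn2, connective tissue growth factor, read 14966 units in the tumour and 2290 in the wild type, with 4320 units in the highest of the other ovaries, the cystic hybrid. Fbln2, fibulin 2 of elastic fibres and basement membranes, read 6071 units in the tumour and 973 in the wild type. Thbs1, the matricellular protein thrombospondin 1, rose to 5111 units in the tumour, against 1248 in the wild type. Vcan, the proteoglycan versican, rose to 3356 units in the tumour, against 592 in the wild type, but the hybrid wild type of 2 months read 3931 units. The falls were Tnc, tenascin C, with 327 units in the tumour and 2748 in the wild type, and Lum, the stromal proteoglycan lumican, with 1479 units in the tumour and 6471 in the wild type. The bright stromal members did not pass: Col3a1 read 9218 units in the tumour and 13024 in the wild type, Dcn 10622 and 16286 units, and Sparc 15016 and 17583 units.

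Enzymes that cut the matrix gave almost no calls. Of 33 measured proteases and inhibitors 0 rose and 1 fell, which was Timp1, a tissue inhibitor of metalloproteinases, with 2618 units in the tumour and 17503 in the wild type. The other wild types read 7461 to 11605 units and the other transgenic ovaries 14629 to 18705 units, so the tumour was the lowest of the 9 ovaries but not 3-fold below every wild type. Mmp2, gelatinase A, read 6533 units in the tumour and 7294 in the wild type. Lgmn, the lysosomal cysteine protease legumain, fell to 2736 units in the tumour, against 17103 in the wild type, and lay beyond all 4 wild types. It was 1 of 2 falls among 27 lysosomal genes, beside Acp5, tartrate-resistant acid phosphatase of macrophages and osteoclasts. Of 29 adhesion and junction genes 2 rose and 2 fell. Cdh2, N-cadherin of granulosa cell contacts, rose to 2693 units in the tumour, against 668 in the wild type. The hybrid wild type of 2 months read 1391 units for Cdh2, so the tumour was less than 3-fold above it. Mia, a small secreted matrix-binding protein, rose to 5821 units in the tumour, against 1112 in the wild type, while the other wild types were all under the floor. Cldn11, a tight junction claudin, and Sdc1, the heparan sulphate proteoglycan syndecan 1, fell to levels under the floor. The wild type read 641 and 921 units for them. For Cldn11 the other wild types read only 164 to 187 units, close to the tumour at 169 units. For Sdc1 they read 423 to 1622 units. No actin or cytoskeletal gene of 42 passed, though Fscn1, the actin-bundling fascin, came near with 10939 units in the tumour and 4050 in the wild type.

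Genes of MHC class II antigen presentation had the lowest list median in the pair, -2.25, and their wild type stood high among wild types. The mean log2 level of the list was 9.12 in the tumour, 11.82 in its wild type and 10.41 to 10.72 in the other wild types, and against the mean of the 4 wild types the median was -1.85, where that of the epithelium list was -1.93. Class II molecules carry peptides to CD4+ T cells on macrophages, dendritic cells and B cells, and their genes share an upstream module of S, X and Y boxes that is read through the transactivator CIITA. Of 7 measured genes 4 fell and 0 rose, and the 3 others were lower without passing. H2-Aa, the alpha chain of the I-A molecule, read 422 units in the tumour and 9850 in the wild type. Its remaining probe sets on the chips fell by 2.96 to 3.11 on the log2 scale. H2-Ab1, the I-A beta chain, did not reach the floor in the tumour and read 5178 units in the wild type, but the other wild types read only 787 to 1077 units. Cd74, the invariant chain that escorts class II molecules, read 860 units in the tumour and 12506 in the wild type, with 5895 to 7026 units in the other wild types. H2-Eb1, the I-E beta chain, read 815 units in the tumour and 3887 in the wild type, whereas a second probe set for it did not pass, at 2012 units in the tumour and 1789 in the wild type. Cd74 and the H2-Aa probe set of 422 units lay beyond all 4 wild types. The other transgenic ovaries read 1386 to 5052 units on that H2-Aa probe set and 2471 to 7023 for Cd74. Some of the remaining H2-Aa probe sets were not beyond all 4 wild types. On 1 of them the tumour read 815 units, the lowest wild type 1540 and the cystic hybrid 831. Family members of the class II chains are near copies of each other and several of these probe sets can take up RNA of more than 1 member.

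The proximal promoters of H2-Aa and H2-Eb1 are shown because both genes fell by their brightest probe sets. A second H2-Eb1 probe set did not fall. The Y box lies in the window that the sequence table covers, 250 bases before to 50 bases after the start of the gene. The sequences are those of RefSeq for assembly GRCm38.p6, 5′ to 3′ on the strand of the gene, and capitals mark the Y box core CTGATTGG, searched on both strands. Windows are shown for 2 of the 4 genes that fell. H2-Ab1 and Cd74 fell too, but their windows are not shown, and whether the core is present in them was not assessed. The 2 windows are therefore examples and give no rate for the genes that fell to set against the share of all promoter windows given below. H2-Aa lies at chr17:34287774-34288073 on the minus strand and H2-Eb1 at chr17:34305617-34305916 on the plus strand.
H2-Aa: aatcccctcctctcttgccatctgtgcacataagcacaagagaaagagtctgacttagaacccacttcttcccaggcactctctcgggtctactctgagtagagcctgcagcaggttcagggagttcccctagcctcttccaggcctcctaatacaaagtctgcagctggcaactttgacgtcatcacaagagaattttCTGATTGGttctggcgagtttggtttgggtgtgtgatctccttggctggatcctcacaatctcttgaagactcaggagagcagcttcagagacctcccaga
H2-Eb1: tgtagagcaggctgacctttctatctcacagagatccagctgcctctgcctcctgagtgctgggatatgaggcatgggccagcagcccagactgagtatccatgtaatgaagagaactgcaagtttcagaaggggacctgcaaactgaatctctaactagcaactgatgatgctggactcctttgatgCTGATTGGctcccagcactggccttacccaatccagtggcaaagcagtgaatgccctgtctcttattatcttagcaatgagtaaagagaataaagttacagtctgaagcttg
The core ends 43 bases before the annotated start in H2-Aa and 54 bases before it in H2-Eb1. It occurs on either strand in 4.1% of 32851 promoter windows of this length. A match of letters describes the sequence and is not evidence of binding in these ovaries.

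Class I and interferon genes differed less. Of 21 measured genes 2 fell and 0 rose, with a median of -0.45, and the falls were Igtp and Iigp1, interferon-inducible GTPases that were dim in the wild type at 629 and 612 units and under the floor in the tumour. B2m, the light chain of class I molecules, read 13528 units in the tumour and 16353 in the wild type. H2-K1, a class I heavy chain, read 12528 units in the tumour and 13070 in the wild type. For H2-D1 the brightest probe set had a log2 difference of -0.45 and another of 2.19, and these heavy chains too are near copies of each other. Ifi202b, an interferon-inducible DNA-binding protein, fell at least 12.9-fold, with 2367 units in the wild type, although both hybrid wild types read only 365 and 383 units.

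Macrophage markers were lower in the tumour than in its own wild type, but that wild type was the highest of the 4. All 14 measured macrophage and myeloid genes were lower in the tumour, with a median of -0.82, and 1 passed. That gene was Cd52, a leukocyte surface protein, with 274 units in the tumour and 825 in the wild type. Lyz2, lysozyme of macrophages, read 21815 units in the tumour and 33432 in the wild type, and Csf1r, the receptor of macrophage growth factor, 325 and 764 units. The mean log2 level of the list was 10.40 in the tumour, 11.21 in its wild type and 9.96 to 10.02 in the other wild types. Against the mean of the 4 wild types the list median was 0.26, and against the CF-1 wild type of 2 months 0.53, so the direction turned with the wild type chosen. The fall of H2-Aa and Cd74 kept its direction against each wild type. Of 9 lymphocyte and plasma cell genes 1 fell, Cd79b of the B cell receptor, with a list median of -0.82, or -0.19 against the CF-1 wild type of 2 months. The 10 complement genes had a median of -0.67 and none passed, and the median was -0.13 against the mean of the 4 wild types. C1qa, a chain of the first complement component, read 2986 units in the tumour and 4466 in the wild type, but only 1183 to 1418 units in the other wild types, so its direction too turned with the wild type chosen. None of 23 chemokine and cytokine genes passed, and the median was -0.01. Both measured mast cell tryptases differed little, with a median of 0.32.

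The largest rise of the comparison was Bpgm, bisphosphoglycerate mutase, which makes the haemoglobin ligand 2,3-bisphosphoglycerate in red cells. It read 5718 units in the tumour and lay under the floor in the wild type, a rise of at least 19.7-fold, and reached at most 686 units in the other ovaries. It was the single call among 8 erythroid genes. The haemoglobin chains did not move with it: Hba-a1 read 14587 units in the tumour and 16854 in the wild type, and Hbb-b2 11480 and 12490 units. Alas2, the first enzyme of erythroid haem synthesis, read 798 units in the tumour and 310 in the wild type, short of 3-fold. Of 13 endothelial genes 2 rose and 1 fell. Procr, the protein C receptor, rose to 2186 units in the tumour, against 400 in the wild type. It was not beyond all 4 wild types, since the CF-1 wild type of 2 months read 1032 units. The cystic CF-1 ovary read 2256 units for it, above the tumour. Thbd, thrombomodulin, which works with Procr to activate protein C, fell below the floor in the tumour, against 1544 units in the wild type. Thbd lay beyond all 4 wild types. Kdr, the main receptor for vascular endothelial growth factor, read 933 units in the tumour and 1990 in the wild type, and Cdh5, VE-cadherin, 632 and 1037 units. None of 10 smooth muscle and contractile genes passed, and Acta2 read 10715 units in the tumour and 11104 in the wild type.

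Genes of oviduct and other epithelia gave more falls than any other list, though class II, adipocyte and cholesterol lists fell in a larger share of their fewer genes. Of 22 measured genes 10 fell and 0 rose, all 10 beyond all 4 wild types, and the median was -1.44. Ovgp1, oviductin of the oviduct's secretory cells, was under the floor in the tumour and read 12352 units in the wild type, a fall of at least 67.2-fold. The other wild types read 9338 to 19169 units and the other transgenic ovaries 5823 to 16721 units for Ovgp1. Keratins of simple epithelia fell with it. Krt19 was under the floor in the tumour and read 1834 units in the wild type, and Krt18 was under the floor in the tumour and read 1448 units in the wild type. For Krt8, their partner, the brightest probe set had a log2 difference of -1.57, just short of 3-fold, and another passed with -1.78, at 372 units in the tumour and 1276 in the wild type, beyond all 4 wild types. Plet1, a surface protein of epithelial progenitors, fell at least 13.0-fold. Dcpp1, a secreted protein, was under the floor in the tumour and read 1518 units in the wild type. S100a6, a calcium-binding protein, read 3390 units in the tumour and 29813 in the wild type. Anxa2, the membrane-binding annexin A2, read 3366 units in the tumour and 16353 in the wild type, and a second probe set fell by 1.86 on the log2 scale. Lsr, a receptor at tricellular junctions, fell to 375 units in the tumour, against 2930 in the wild type. The iron-binding proteins Lcn2 and Ltf were under the floor in the tumour while the wild type read 1724 and 1100 units. Some epithelial genes did not take part: Krt7 read 1004 units in the tumour and 941 in the wild type, and Cd24a 2613 and 2168 units. Whether the 2 samples held unequal amounts of oviduct or surface epithelium was not tested.

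Fat cell genes fell as well, by an amount that depended on the wild type. Of 11 measured genes 6 fell and 1 rose, and the median was -1.66. Adipoq, the hormone adiponectin, was under the floor in the tumour and read 2037 units in the wild type, with 613 to 2156 units in the other wild types. Fabp4, a fatty acid carrier, was under the floor in the tumour and read 1755 units in the wild type, against 418 units in the CF-1 wild type of 2 months. Car3, Lipe, Gpd1 and Scd1 were the other falls, and of the 6 only Adipoq lay beyond all 4 wild types. Against the CF-1 wild type of 2 months the list median was -0.15. Pparg, the nuclear receptor that drives fat cell differentiation and is also made by granulosa cells, rose to 1591 units in the tumour, against 355 in the wild type. Cd36, a fatty acid transporter, read 4762 units in the tumour and 2238 in the wild type, and Lpl, lipoprotein lipase, 3227 and 5734 units. The amount of adjoining fat in either sample was not tested.

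**Figure D4:**
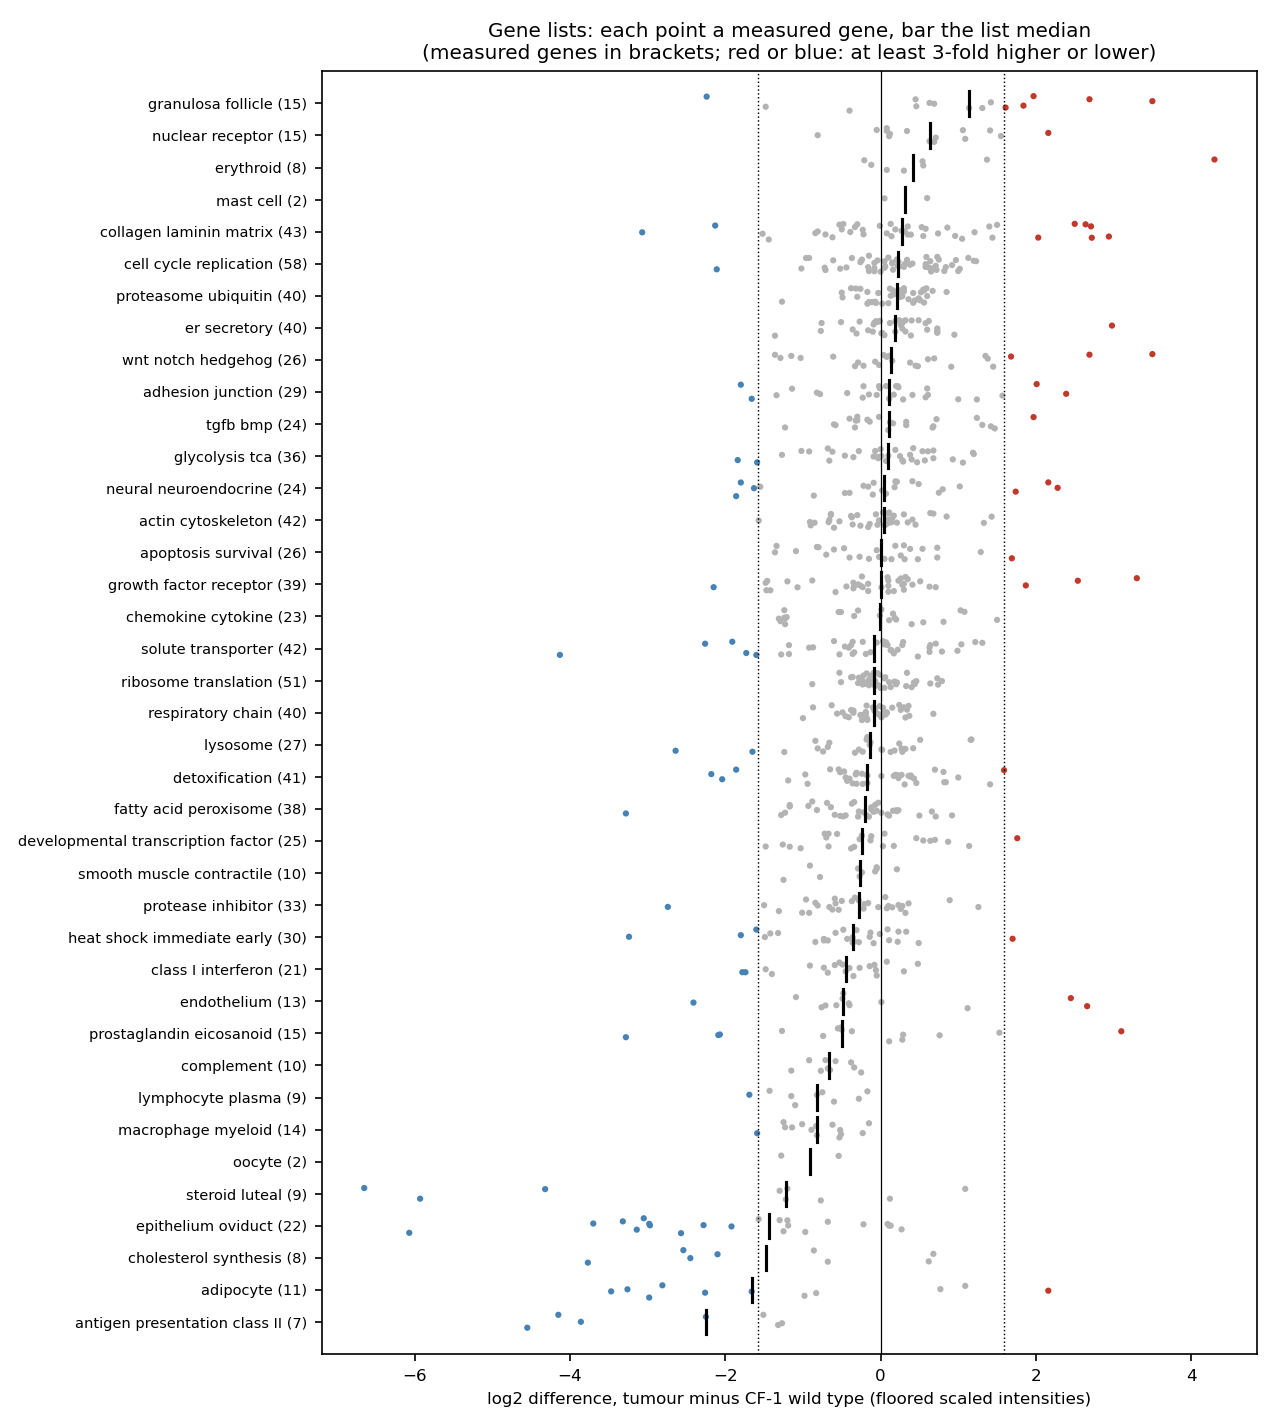
Log2 difference, tumour minus CF-1 wild type (horizontal), of every measured gene (points) of 39 gene lists (rows, ordered by median; black bars are medians); red and blue points passed the 3-fold rule and dotted lines mark 3-fold. Class II antigen presentation (-2.25), adipocyte (-1.66), cholesterol synthesis (-1.48) and epithelium (-1.44) stand lowest and the granulosa list (1.14) highest, while most housekeeping lists centre near 0.

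Prostaglandin genes changed at single steps of the pathway. Of 15 measured genes 1 rose and 3 fell, with a median of -0.50. Ptgfr, the prostaglandin F receptor, was counted with the luteal and steroid list instead. It read 217 units in the tumour and 13224 in the wild type and lay beyond all 4 wild types. Ptges, the enzyme that makes prostaglandin E2, read 9638 units in the tumour and 1127 in the wild type, and every other ovary lay between 682 and 1349 units. Ephx2, the soluble epoxide hydrolase that breaks down epoxy fatty acids, fell to 1849 units in the tumour, against 18014 in the wild type, with 9395 units in the lowest of the other ovaries. Anxa1, the glucocorticoid-induced annexin A1, read 1492 units in the tumour and 6351 in the wild type. Ptgds, prostaglandin D synthase, was under the floor in the tumour and read 773 units in the wild type, but the wild types themselves ran between values under the floor and 773 units. Ptgis, prostacyclin synthase, read 2016 units in the tumour and 2959 in the wild type and did not pass.

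Detoxification, stress and early response genes gave few calls. Of 41 detoxification genes 1 rose and 3 fell. Cyp1b1, a cytochrome that hydroxylates oestradiol, rose to 16309 units in the tumour, against 5430 in the wild type, and was the brightest of the 9 ovaries. Gsta4 and Gsta3, glutathione transferases of the alpha class, fell. Gsta4 read 1594 units in the tumour and 6538 in the wild type, and Gsta3 565 and 2052 units. For Gsta3 the other wild types read only 616 to 823 units. Cyp2e1 fell below the floor, where the CF-1 wild type of 2 months also lay. None of these 3 falls lay beyond all 4 wild types. Of 30 heat shock and immediate early genes 1 rose and 3 fell, with a median of -0.36. Dusp1, a phosphatase that switches off MAP kinases, fell to 408 units in the tumour, against 3844 in the wild type. Its partners in rapid induction were split, since Jun and Junb fell while Fos rose to 947 units in the tumour, against a level under the floor in the wild type. Dusp1 and Fos lay beyond all 4 wild types, and Jun and Junb did not. Hspa8, a constitutive chaperone, read 15854 units in the tumour and 16898 in the wild type.

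The listed proliferation genes stayed within 3-fold with 1 exception by their brightest probe sets. Ccnd2, a D-type cyclin that rose, was counted with the granulosa list instead. Of 58 measured genes of the cell cycle and DNA replication 37 were higher and 21 lower in the tumour, the median was 0.22, 0 rose and 1 fell. Cdk1, the mitotic kinase, read 5978 units in the tumour and 2948 in the wild type, and Cdk4, the kinase of the D cyclins, 11626 and 5797 units. Rrm2, a subunit of ribonucleotide reductase, read 1504 units in the tumour and 656 in the wild type. For Top2a, DNA topoisomerase II alpha, the brightest probe set differed by 1.23 and another, which passed, by 2.33 on the log2 scale. The median was -0.06 against the mean of the 4 wild types and -0.16 against the CF-1 wild type of 2 months, so its sign turned with the wild type chosen. The fall was Gadd45a, a stress-induced growth arrest gene, with 845 units in the tumour and 3641 in the wild type, beyond all 4 wild types. Of 26 apoptosis and survival genes 1 rose, the adaptor gene Traf6, and 0 fell.

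Signalling and transcription factor lists gave single calls. Of 24 measured genes of the TGF-beta and BMP families 1 rose, Inhba, and Id3, an inhibitor of helix-loop-helix factors, read 9291 units in the tumour and 3934 in the wild type. Of 15 nuclear receptor genes and their partners 13 were higher and 2 lower, with a median of 0.63, and Pparg alone passed. Nr0b2, the repressor SHP, read 982 units in the tumour and 335 in the wild type, and Nr5a2, LRH-1 of granulosa cells, 16653 and 10326 units. Of 25 developmental transcription factor genes 1 rose, Tead2, a partner of YAP, with 1805 units in the tumour and 533 in the wild type. Eya2, a co-activator with phosphatase activity, rose at least 11.8-fold to 2177 units in the tumour, and the wild types reached only 251 units. Prkar1b, a regulatory subunit of protein kinase A, rose at least 8.83-fold to 1622 units in the tumour. A second probe set for Prkar1b did not pass, at 1367 units in the tumour and 782 in the wild type.

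Housekeeping functions gave few calls. Of 51 ribosome and translation genes 0 rose and 0 fell, with a median of -0.09, and the 40 respiratory chain genes and the 40 proteasome and ubiquitin genes likewise had 0 of either, with medians of -0.09 and 0.21. Rps3 read 22051 units in the tumour and 23150 in the wild type, Atp5b 26798 and 25308 units, and Psmb3 14619 and 9895 units. Of 36 glycolysis and citrate cycle genes 2 fell, with a median of 0.09. Me1, malic enzyme, which supplies NADPH for lipid and steroid synthesis, fell to 3176 units in the tumour, against 11399 in the wild type, and lay beyond all 4 wild types, which spanned 10721 to 13096 units. Pcx, pyruvate carboxylase, read 395 units in the tumour and 1192 in the wild type. Ephx2 was the single fall among 38 fatty acid and peroxisome genes, whose median was -0.20. Of 40 genes of the endoplasmic reticulum and secretory pathway 1 rose, Fam20c, the Golgi kinase of secreted proteins, with 10242 units in the tumour and 1298 in the wild type, and every other ovary at or below 1368 units.

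Of 42 measured genes of the transporter list, which holds some that are not transporters, 5 fell and 0 rose, with a median of -0.09. Of these 5 only Abcb1b lay beyond all 4 wild types. Abcb1b, a P-glycoprotein drug and lipid pump, was under the floor in the tumour and read 3217 units in the wild type, a fall of at least 17.5-fold. The other wild types read 2760 to 6760 units and the other transgenic ovaries 4657 to 8196 units for Abcb1b, so the tumour was the only one of 9 ovaries under the floor. Slc6a8, the creatine transporter, fell at least 4.78-fold, and Slc20a1, a phosphate transporter, Cp, the copper oxidase ceruloplasmin, and Slc9a3r1, a membrane scaffold, fell with log2 differences of -1.91, -1.73 and -1.60. Among the remaining large falls, Tlcd4, a membrane protein with a TLC domain, lay beyond all 4 wild types and was under the floor in the tumour, against 2932 units in the wild type. Pam, which amidates peptide hormones, read 210 units in the tumour and 2597 in the wild type, and Eif4ebp2, a repressor of translation initiation, 217 and 2359 units. For both, the other wild types read well below the CF-1 wild type of 5 months, at 682 to 990 units for Pam and 743 to 877 units for Eif4ebp2. The 2 other Eif4ebp2 probe sets did not fall, with log2 differences of 0.48 and 0.20. Rgl1, an exchange factor for Ral, and Samd10, a protein with a SAM domain, were under the floor in the tumour while the wild type read 2111 and 1816 units, and neither lay beyond all 4 wild types. Entpd6, an ectonucleotidase, rose at least 6.68-fold to 1229 units in the tumour.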

How the data were processed

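Total RNA of mouse ovaries was measured on chips A and B, which hold Affymetrix controls. The authors deposited linear intensities, a single value for every probe set of an array, some below 0. The sources used here do not say how, or with which software, the authors made these intensity values. Groups came from the sample titles. The 9 arrays of each chip type were scaled to the same mean of values between percentiles 2 and 98. For the floor, each array gave the size of its 5th percentile or its 25th percentile, whichever was larger, and the median of these was taken; the detection limit was 2 floors. The 55 Affymetrix control and 21 probe sets present on both chips (76 per chip) entered the scaling but no count. Before scaling, the trimmed mean of the tumour and its wild type was 1133 and 907 units on chip A and 889 and 811 units on chip B. After it, 54.6% and 55.5% of probe sets on chip A and 29.0% and 28.8% on chip B reached the limit. The 17 control probe sets measured on both chips gave log2 differences with a median gap of 0.14 between chips and a largest gap of 0.90. The 4 named probe sets measured on both chips had a median gap of 0.20 and a largest of 1.84, for a probe set that differed by -1.70 (chip A) and 0.13 (chip B). The number of arrays limits the precision, and no spread between animals can be had.

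Genes were named from the platform annotation, updated by Entrez number through GRCm38.p6 gene models (7544 of 7561 entries with 1 symbol matched). The text names the 15 largest rises and falls outside the steroid, luteal and cholesterol lists, up to 6 members of each of 39 lists that passed 3-fold, and bright or defining members that did not pass. The comparison, its members and the gene lists were chosen with earlier results of these data known. Alternatives to scaling, floor, limit, filter and wild type were run. Python 3.11.15, pandas 2.3.3, numpy 2.4.6 and matplotlib 3.10.9 were used.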

Additional observations from a re-analysis of the deposited data

Results flagged for a closer look

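In 10 named genes the CF-1 pair of 5 months and the hybrid pair of 5 months (luteoma and hybrid wild type) passed 3-fold in opposite directions. With 1 sample a side these differences were not tested. The 10 come from 93 genes that were named because they passed between the tumour and its wild type. How many of the 93 passed in the same direction in the hybrid is not given, nor is a share over all measured probe sets. Of the 10, Dhh, Nnat, Dusp1 and Sqle lay beyond all 4 wild types and the rest did not. Gsta3, for example, read 565 units in the tumour and 616 to 823 in the wild types other than its partner. In the tumour minus CF-1 wild type difference, Dhh had 3.50, Ihh 2.69, Nnat 2.28 and Inhba 1.97 on the log2 scale, while the hybrid luteoma minus its wild type gave -1.75 for Dhh, -2.11 for Ihh and -1.92 for both Nnat and Inhba. Inhba read 1562 units in the luteoma and 5891 in the hybrid wild type. The other 6 fell in the tumour and rose in the luteoma. The CF-1 differences were -3.30 for Samd10, -3.24 for Dusp1, -2.10 for Sqle, -2.07 for Ptgds, -1.86 for Gsta3 and -1.66 for Sdc1. The hybrid differences were 2.87 for Samd10, 1.74 for Dusp1, 1.76 for Sqle, 6.26 for Ptgds, 2.91 for Gsta3 and 2.91 for Sdc1. Ptgds, prostaglandin D synthase, read 14122 units in the luteoma and lay under the floor in the hybrid wild type. Where a sample lay under the floor, as also for Dhh and Ihh in the luteoma and Samd10 in the hybrid wild type, the difference is a lower bound of its size.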

How the results depend on the processing

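With the floor doubled, 57 probe sets were higher and 125 lower in the tumour, and 66 lay beyond all 4 wild types, 27 higher and 39 lower; fewer probe sets can reach 3-fold over a raised floor. With the CF-1 wild type of 2 months in place of that of 5 months 206 were higher. The other 28 counts recomputed under alternatives of scaling, floor, limit, filter and wild type lay within 1.5 times the counts reported. Counts beyond all 4 wild types were not recomputed under another wild type. Among lists with a median of at least 0.5 in size, for which alone a change of sign was counted as a reversal, that of the macrophage list reversed, to 0.26 against the mean of the 4 wild types and 0.53 against the younger CF-1 wild type, and Cd52 reversed to 0.36 against the same ovary; the cause was not tested. Of 744 values of single named genes under alternatives 660 kept their direction and side of 3-fold, 83 dropped below 3-fold and 1 reversed. Of 351 list medians 285 moved little, 64 moved and 2 reversed. Bright probe sets near the top of the scale are compressed, and dim ones are limited by the floor. No paired analysis was possible because each condition has 1 array per chip type and no result comes from a test.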

Other observations

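Outside the gene lists, several named regulators and enzymes passed 3-fold in the tumour, given here as values chosen after they were seen. On the log2 scale the Myc family genes Mycn and Mycl rose by 2.31 and 2.29, Reln, the matrix signal reelin, by 2.26, Hsd11b2, which inactivates glucocorticoids, by 1.86, Adcy6, an adenylyl cyclase, by 1.95, and Ramp1, a receptor partner for calcitonin gene-related peptide, by 2.24. The transcriptional cofactor gene Cited1 fell with a log2 difference of -2.37, Ada, adenosine deaminase, with -2.62, Ece1, the endothelin-converting enzyme, with -2.71 and Xdh, xanthine dehydrogenase, with -2.20. Of these genes only Reln lay beyond all 4 wild types. Hsd11b2, for example, read 5104 units in the tumour and 5300 in the cystic hybrid, and Ramp1 2416 units in the tumour and 1519 in the hybrid wild type of 2 months.

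For Ets1 the brightest probe set differed by 0.55 and another by -2.25 on the log2 scale, for Notch2 by -0.29 and -1.67, and for Cdkn1a, the cell cycle inhibitor p21, by 0.15 and -1.80, so these genes had no single value.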
